A study of Mus musculus with 6 samples.

Results

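The 10 genes described here build the MHC class I antigen presentation pathway of the mouse: H2-K1, H2-D1, B2m, Tap1, Tap2, Tapbp, Psmb8, Psmb9, Psmb10 and Erap1. They were chosen by name for their role in the pathway, and all 10 were found among the 49315 genes of the deposited count table. The table holds RNA-seq read counts from RAW264.7, a mouse macrophage-like cell line with the genotype given as WT. Cells received 4 μg/mL of SKI-II, a small molecule first described as a sphingosine kinase inhibitor, or its vehicle DMSO, for 24 h, with 3 libraries in each group. No bacteria or cytokine are named in the labels of either group. The comparison below asks which steps of class I presentation differed at the RNA level.

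Class I molecules show peptides from inside the cell to CD8 T cells. Proteasomes cut cytosolic proteins, the Tap1-Tap2 transporter moves the peptides into the endoplasmic reticulum, Erap1 trims their ends, and tapasin (Tapbp) holds an empty heavy chain, paired with beta-2-microglobulin (B2m), beside the transporter until a peptide is bound. Interferon-gamma, acting in part through Irf1, is the classical inducer of most of these genes and exchanges the constitutive catalytic subunits of the proteasome for Psmb8, Psmb9 and Psmb10.

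The 6 libraries held between 12495957 and 20050677 counts. All 12 macrophage markers examined carried more than 20 counts over the libraries, whereas the 4 markers of NK cells and the 5 of epithelial cells carried at most 20 each. The same held for 6 of 8 dendritic cell, 6 of 7 T cell, 5 of 6 B cell and 4 of 5 fibroblast markers. The summed level of the 12 macrophage markers lay between 151527 and 218123 normalized counts with DMSO and between 98536 and 137677 with SKI-II, without overlap. That sum depended on single abundant markers. Without Lyz2 the other 11 summed to between 60976 and 68109 with DMSO and between 71250 and 76393 with SKI-II, and without Lyz2 and Cd14 the remaining 10 overlapped, at 54422 to 60654 and 52347 to 55995. Of the 12 markers 2 were called higher (Cd14 and Fcgr1) and 4 lower (Lyz2, Adgre1, Itgam and Mpeg1). Among the markers of other cell types Ighm, Itgax and Zbtb46 were called lower and Lck higher in edgeR, and the call of Zbtb46 was lost without any library but SKI-II replicate 3 (adjusted p up to 0.151). Summed levels moved with them, from between 188 and 280.5 normalized counts to between 4.07 and 6.71 for B cell markers, from between 296 and 313 to between 110 and 171 for dendritic cell markers, and from between 97.3 and 116 to between 181 and 240 for T cell markers. The part of all these markers in the results below was not tested. In bulk RNA, fewer cells of a type and less RNA per cell cannot be told apart. The study's methods state that its experiments were repeated independently, the labels do not say which libraries share a culture, and p-values measure the spread between these libraries.

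All 10 pathway genes passed the filter on low counts. After SKI-II, 5 of them fell (Tapbp, Psmb8, B2m, Psmb10 and Erap1), 1 rose (Tap2), and 4 were not called (H2-K1, H2-D1, Tap1 and Psmb9), by edgeR's quasi-likelihood test (Benjamini-Hochberg adjusted p below 0.05 over the 12274 genes tested). For all tested genes the same rule called 19.7% lower and 18.4% higher, and the counts of the gene lists below stand against the same shares. The median log2 fold change of the 10 genes was −0.59, against 0.00 for all tested genes. Every SKI-II library lay below every DMSO library for 5 of the 10 genes, which 25.5% of all tested genes showed, and above for 1 gene, which 24.8% showed. Only Tapbp also fell beyond a log2 fold change of −1, a limit that 7.45% of all tested genes passed in that direction.

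**Figure D1:**
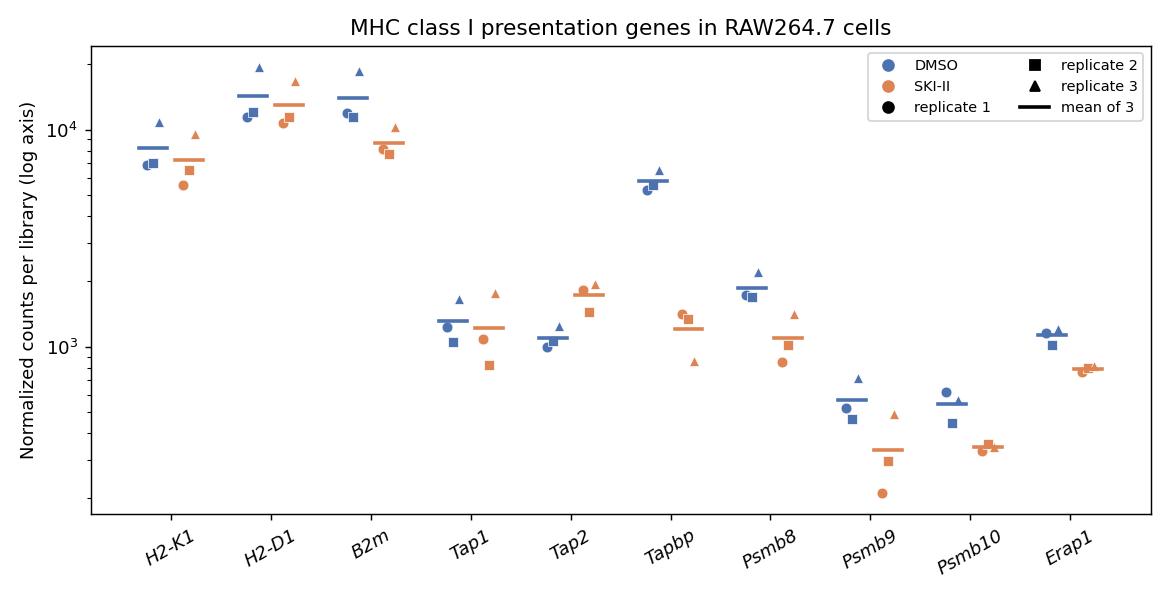
Normalized counts (log axis) of the 10 genes in each library, with blue points for DMSO, orange points for SKI-II, the replicate number as the point shape and bars for the mean of 3. The groups are far apart for Tapbp (5255 to 6507 in DMSO, 855 to 1413 in SKI-II), while they overlap for H2-K1, H2-D1, Tap1 and Psmb9.

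Tapbp, the tapasin gene (ENSMUSG00000024308, GRCm38 chr17:33915899-33929292, plus strand), showed the largest difference of the 10. Its normalized counts were 5255, 5527 and 6507 with DMSO against 1413, 1344 and 855 with SKI-II, so that the lowest control lay far above the highest treated library. The mean was 5763 ± 658 against 1204 ± 304 (SD, n = 3 each), 4.79-fold lower after SKI-II. The log2 fold change was −2.26 ± 0.19 (SE), with an adjusted p of 3.07e-05 in edgeR's quasi-likelihood test, and it lay between −2.39 and −2.07 when each library was left out in turn. The annotated exons of Tapbp share 149 bases with Zbtb22 on the same strand and 904 bases with the antisense gene Gm19412. Zbtb22 itself had a log2 fold change of 0.03 and Gm19412 held 2 to 9 counts per library.

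Tapbpl, which encodes the tapasin-related protein TAPBPR, a second peptide editor that works away from the transporter, went the other way. It had 118, 136 and 96.0 normalized counts in DMSO against 263, 302 and 240 after SKI-II, without overlap, and rose with a log2 fold change of 1.20 ± 0.20 (edgeR, adjusted p = 0.0013). Per exon length its mean level was 7.10 CPM per kilobase after SKI-II, below the 20.7 CPM per kilobase of Tapbp in the same libraries.

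Of the subunits of the peptide transporter, Tap2 rose and Tap1 was not called. Tap2 (ENSMUSG00000024339, chr17:34203527-34216321, plus strand) had 997, 1064 and 1243 normalized counts in DMSO against 1826, 1441 and 1933 after SKI-II. All treated libraries exceeded all controls, and Tap2 rose 1.57-fold, with a log2 fold change of 0.65 ± 0.15 (edgeR, adjusted p = 0.00656). Tap1 (ENSMUSG00000037321, chr17:34187553-34197225, plus strand) had 1227, 1046 and 1651 in DMSO against 1084, 821 and 1761 after SKI-II. These ranges overlapped widely, and its log2 fold change was −0.10 ± 0.26 (edgeR, adjusted p = 0.803), turning to 0.10 without DMSO replicate 3 and to 0.12 without SKI-II replicate 2. The log2 ratio of Tap1 to Tap2, each per exon length, was −0.23, −0.56 and −0.12 in DMSO against −1.29, −1.35 and −0.67 after SKI-II. The treated libraries all lay below the controls, with a difference of −0.79 ± 0.25 (SE). Tap1 lies back to back with Psmb9, and the exons of the pair share 212 bases on opposite strands. The kit is not described as directional and the sources used here do not give the strand setting of the counting, so reads of that stretch cannot be assigned to one gene.

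The other loading genes belong to the general folding machinery of the endoplasmic reticulum. Calr, the chaperone calreticulin, had 23964, 20475 and 23193 normalized counts in DMSO against 51095, 45933 and 36595 after SKI-II. It rose 1.98-fold, with a log2 fold change of 0.98 ± 0.17 (edgeR, adjusted p = 0.00177). Canx, the membrane-bound relative calnexin, had a log2 fold change of 0.03 ± 0.14, and Pdia3, the disulfide isomerase ERp57 that is linked to tapasin, had 0.27 ± 0.15. Neither was called (edgeR, adjusted p = 0.89 and 0.191). Of the 8 loading genes, 3 were thus called higher (Tapbpl, Calr and Tap2), 2 lower (Tapbp and B2m) and 3 neither way, with a median log2 fold change of 0.15. The count of lower calls was 1 without replicate 3 of DMSO or replicate 1 or 2 of SKI-II.

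The classical heavy chains were not called, and their light chain fell. H2-K1 (ENSMUSG00000061232, chr17:33996017-34000347, minus strand) had 6867, 7020.1 and 10816 normalized counts in DMSO against 5563, 6520.0 and 9549 after SKI-II. H2-D1 (ENSMUSG00000073411, chr17:35262730-35267499, plus strand) had 11450, 12080 and 19364 in DMSO against 10736, 11442 and 16759 after SKI-II. In both genes replicate 3 stood high in either group, and the groups overlapped. The log2 fold changes were −0.19 ± 0.23 for H2-K1 and −0.14 ± 0.24 for H2-D1 (edgeR, adjusted p = 0.556 and 0.679), and they were 0.05 and 0.14 without DMSO replicate 3.

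B2m (ENSMUSG00000060802, chr2:122147686-122153083, plus strand) had 11929, 11479 and 18645 normalized counts in DMSO against 8158, 7712 and 10242 after SKI-II. The highest treated library lay below the lowest control, and B2m fell with a log2 fold change of −0.69 ± 0.21, 1.61-fold (edgeR, adjusted p = 0.0249). That call was lost without DMSO replicate 3, where the log2 fold change was −0.43 and the adjusted p 0.0656, and also without SKI-II replicate 1 (adjusted p = 0.0748) or SKI-II replicate 2 (adjusted p = 0.101). The ratio of both heavy chains to B2m varied less among libraries of a group than the genes themselves. Its log2 value, per exon length, was −1.03, −0.92 and −0.95 in DMSO against −0.65, −0.43 and −0.29 after SKI-II. All treated libraries lay above all controls, by 0.51 ± 0.11 (SE) on the log2 scale.

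RAW264.7 was established from a BALB/c mouse, whose H2 alleles differ from those of the C57BL/6 reference, and class I genes resemble each other closely. Counts of H2-K1, H2-D1 and the class Ib genes are therefore uncertain as to which gene or allele each read came from, and how far this touches their values was not tested. B2m, Tapbp and the proteasome genes have no such close relatives. Tapbp, Psmb8, Psmb9, Tap1 and Tap2 lie in the same region of chromosome 17 as the heavy chains. Their alleles may differ from the reference as well, which was not tested either.

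Sequences in front of a heavy chain gene and of B2m are shown because these partners differed in their calls and are both known targets of interferon and NF-kappa-B. RefSeq gave a start site for 9 of the 10 genes (not Tap2), with coordinates on GRCm38.p6. For H2-K1 and B2m the 250 bases before that start touched at most 1 base of an annotated exon, whereas those of the other 7 overlapped annotated exons by 52 to 250 bases and are not shown. Capitals mark the matches, on either strand, to 8 short motifs: GAAANNGAA (the core of an interferon-stimulated response element), GGGNNTTCC (kappa B), TTCNNNGAA (a gamma-activated site), CCAAT (where NF-Y binds), TGACGC (the CRE-like X2 box), TGACNNNGC (the core of an antioxidant response element) and, added after the windows had been seen, the wider AANNGAAA (the core bound by interferon regulatory factors) and the 10-base kappa B consensus.
H2-K1, chr17:34000348-34000597, minus strand: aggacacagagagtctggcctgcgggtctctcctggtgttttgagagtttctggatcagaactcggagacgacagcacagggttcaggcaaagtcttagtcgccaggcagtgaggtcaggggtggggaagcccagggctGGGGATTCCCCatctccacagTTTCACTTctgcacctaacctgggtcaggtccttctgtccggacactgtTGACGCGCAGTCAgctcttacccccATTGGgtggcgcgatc
B2m, chr2:122147437-122147686, plus strand: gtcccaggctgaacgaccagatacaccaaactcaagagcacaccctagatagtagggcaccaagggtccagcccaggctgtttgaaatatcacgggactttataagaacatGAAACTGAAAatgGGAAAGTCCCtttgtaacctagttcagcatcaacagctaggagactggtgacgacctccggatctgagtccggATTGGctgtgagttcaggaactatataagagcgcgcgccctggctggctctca

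The H2-K1 window held a kappa B match starting 111 bases before the start site, a TGACGC match at 41 bases that overlaps an antioxidant-type match, and an inverted CCAAT at 16 bases. The H2-D1 window held the same kappa B, TGACGC and CCAAT letters and shares an unbroken run of 47 bases with that of H2-K1. The B2m window held an interferon-type match starting 139 bases before the start site, and an inverted CCAAT at 53 bases. In the wider spellings all 3 windows matched both elements: AANNGAAA started at 90 bases (inverted) in H2-K1 and at 137 bases in B2m, where it overlaps the interferon-type match, and the 10-base kappa B consensus started at 111 bases in H2-K1, over the shorter match, and at 126 bases (inverted) in B2m. Among 32851 RefSeq windows of the same length, 4.98% held the kappa B letters, 6.12% TGACGC, 7.13% the interferon-type core, 7.02% the gamma-activated letters, 10.2% the antioxidant-type core, 33.8% CCAAT, 21.3% AANNGAAA and 7.25% the 10-base kappa B consensus. Of the other genes, Erap1 matched the interferon-type core, Psmb8 the gamma-activated letters, Tap1, Tapbp and Psmb9 CCAAT alone, and Psmb10 none of the 8. Tap1 and Psmb9 share 225 of the 250 bases, read in opposite directions. A match describes these letters only and is no measure of binding.

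All 3 catalytic subunits of the immunoproteasome had lower mean counts after SKI-II. Psmb8 (ENSMUSG00000024338, chr17:34197721-34201454, plus strand), also known as LMP7, had 1720.2, 1688 and 2202 normalized counts in DMSO against 847, 1016 and 1410.3 after SKI-II. The groups did not overlap, and Psmb8 fell 1.71-fold, with a log2 fold change of −0.78 ± 0.19 (edgeR, adjusted p = 0.0103). Psmb10 (ENSMUSG00000031897, chr8:105935735-105938444, minus strand), or MECL-1, had 619, 445 and 570.4 in DMSO against 331, 357 and 345 after SKI-II. Its treated libraries were close together and all below the controls, with a log2 fold change of −0.66 ± 0.16 (edgeR, adjusted p = 0.00842).

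Psmb9 (ENSMUSG00000096727, chr17:34181987-34187764, minus strand), or LMP2, had 519.6, 465 and 718 normalized counts in DMSO against 213, 297 and 489.7 after SKI-II. Replicate 3 was the highest of each group, and SKI-II replicate 3 reached into the range of the controls. Psmb9 had a log2 fold change of −0.76 ± 0.28 and was not called (edgeR, adjusted p = 0.0573). Without SKI-II replicate 3 its log2 fold change was −1.16 and its adjusted p 0.00457, and with all libraries it was called by DESeq2 (adjusted p = 0.0259) and by limma-voom (adjusted p = 0.0454).

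Of the constitutive subunits that these proteins replace, 1 rose and the other 2 were not called. Psmb5, the partner of Psmb8, rose from 1346, 1514 and 1626 normalized counts to 2169.6, 2464 and 2444, with a log2 fold change of 0.66 ± 0.12 (edgeR, adjusted p = 0.00229). Psmb6 and Psmb7 were not called, with log2 fold changes of 0.21 ± 0.12 and −0.20 ± 0.14 (edgeR, adjusted p = 0.215 and 0.296). The log2 ratio of Psmb8 to Psmb5, per exon length, was −1.56, −1.75 and −1.47 in DMSO against −3.27, −3.19 and −2.70 after SKI-II, a difference of −1.46 ± 0.19 (SE) or 2.75-fold. For Psmb9 over Psmb6 the ratio was −3.38, −3.60 and −3.18 in DMSO against −5.10, −4.39 and −3.79 after SKI-II, a difference of −1.04 ± 0.40. For Psmb10 over Psmb7 it was −1.22, −1.83 and −1.77 in DMSO against −2.08, −1.93 and −2.19 after SKI-II, a difference of −0.46 ± 0.21, which was −0.27 without DMSO replicate 1. In all 3 pairs the SKI-II libraries lay below the DMSO libraries, narrowly so for Psmb10 over Psmb7.

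**Figure D2:**
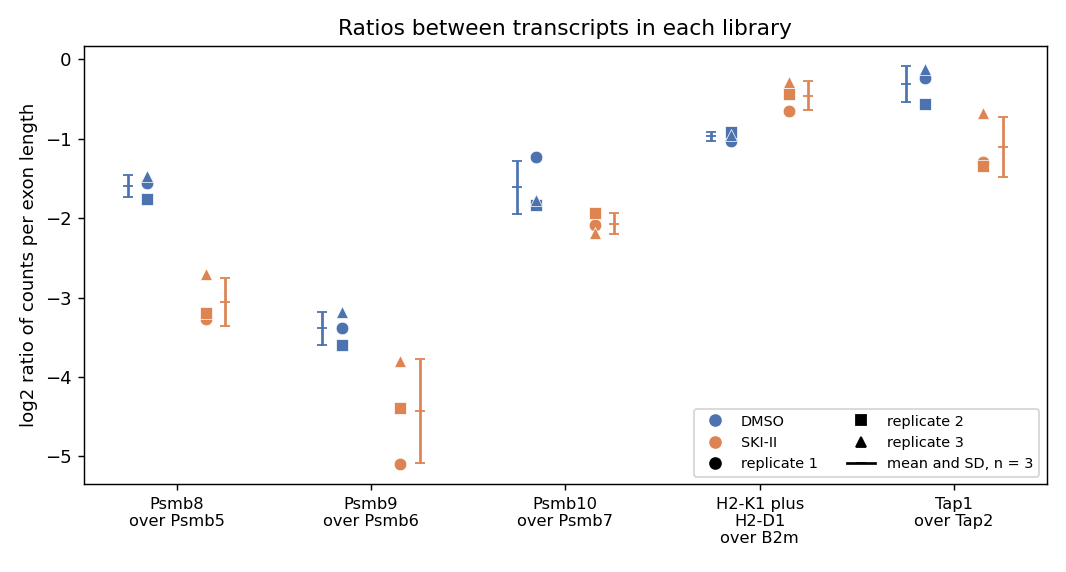
log2 ratios between transcripts (counts per exon length) in each library, with points by group and replicate and bars for the mean and SD of 3. The groups are apart in all 5 ratios, most widely for Psmb8 over Psmb5, and the heavy chain to B2m ratio is the one that is higher in SKI-II.

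Over the 5 ratios, an exact two-sided permutation test of 3 against 3 libraries gave p = 0.1 each, and 0.1 after Benjamini-Hochberg adjustment over the 5. This is the smallest p that the design allows, so these ratios cannot pass a threshold of 0.05 by that test.

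Helpers of the immunoproteasome were also called lower. Psme1 and Psme2 encode the alpha and beta chains of PA28, the interferon-inducible activator of the proteasome. Psme1 had 1634, 1400.0 and 1582 normalized counts in DMSO against 841, 949 and 989.9 after SKI-II, a log2 fold change of −0.73 ± 0.12 (edgeR, adjusted p = 0.0015). Psme2 had a log2 fold change of −0.44 ± 0.16 and Pomp, the maturation factor of the proteasome, −0.36 ± 0.12 (edgeR, adjusted p = 0.0498 and 0.0432). Both of these calls stood at the threshold and were lost without replicate 2 or 3 of DMSO or replicate 1 or 2 of SKI-II, and that of Pomp also without SKI-II replicate 3, with adjusted p up to 0.158 and 0.136. DESeq2 called neither with all libraries kept (adjusted p = 0.0511 for Psme2 and 0.0549 for Pomp), and 4 genes of the list lower in all. Psme3, the nuclear activator PA28-gamma, which interferon-gamma does not induce, had a log2 fold change of −0.04 ± 0.12 (edgeR, adjusted p = 0.829). Of the 7 genes in this list, 5 were called lower and 0 higher in edgeR, with a median log2 fold change of −0.66. No gene of the list was higher at an unadjusted p below 0.05 either (0 genes), nor in DESeq2 (0) or limma-voom (0). The count of lower calls was 3 without any of those first 4 libraries.

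Erap1 (ENSMUSG00000021583, chr13:74639568-74693201, plus strand), the aminopeptidase that trims peptides in the endoplasmic reticulum, had 1153, 1016 and 1210.0 normalized counts in DMSO against 761, 793 and 816 after SKI-II. The groups were apart and Erap1 fell 1.43-fold, with a log2 fold change of −0.51 ± 0.12 (edgeR, adjusted p = 0.00843). Its exons share 834 bases with Cast on the opposite strand, and Cast, which encodes calpastatin, had a log2 fold change of 0.49, in the other direction. Thop1 and Blmh, cytosolic peptidases that destroy peptides or trim them further, fell as well. Thop1 (thimet oligopeptidase) had 1476, 1387 and 1516 in DMSO against 797, 752 and 845 after SKI-II, with a log2 fold change of −0.87 ± 0.12 (edgeR, adjusted p = 0.000374), and Blmh (bleomycin hydrolase) had −0.67 ± 0.13 (edgeR, adjusted p = 0.00263). Of 12 trimming and destroying peptidases, these 3 were called lower and 0 higher in edgeR, and the median log2 fold change was −0.16. At an unadjusted p below 0.05, 1 was higher, DESeq2 and limma-voom called 0 higher, and edgeR called 1 higher among genes with at least 10 counts in every library.

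The 10 genes were ordered by level, in CPM per kilobase of annotated exon. Places of close neighbours depended on the length used: the level of Tap1 over that of Tap2 in DMSO was 0.809 per annotated exon length and 1.37 per length of the longest coding transcript. In DMSO, B2m came first with a mean of 1016, before H2-D1 (346), H2-K1 (175), Tapbp (99.0), Psmb8 (34.5), Psmb10 (19.9), Tap2 (18.2), Tap1 (14.9), Psmb9 (9.67) and Erap1 (9.64). Each of the first 5 lay above the next without overlap of the libraries, and from Psmb10 on neighbours overlapped. In SKI-II, the first 3 places were again those of B2m (631), H2-D1 (314) and H2-K1 (153), followed by Tap2 (28.6), Tapbp (20.7), Psmb8 (20.1), Tap1 (13.9), Psmb10 (12.6), Erap1 (6.76) and Psmb9 (5.67). There Tap2, Tapbp, Psmb8 and Tap1 each overlapped the next gene in the order, as did Erap1 and Psmb9.

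Among the class Ib genes, which encode less variable relatives of the classical heavy chains and also pair with B2m, 3 of 16 tested fell, a share near the 19.7% of all tested genes, and 1 rose, with a median log2 fold change of −0.35. The largest change was that of H2-T24, with 848, 561 and 584 normalized counts in DMSO against 28.0, 33.4 and 88.0 after SKI-II, a log2 fold change of −3.70 ± 0.37 (edgeR, adjusted p = 8.38e-05). H2-T23, the mouse Qa-1 molecule that presents leader peptides of other class I chains to NK cell receptors, had 1235, 1180.1 and 1639 in DMSO against 317, 421 and 463 after SKI-II, a log2 fold change of −1.75 ± 0.18 (edgeR, adjusted p = 8.98e-05). H2-T22, whose product is a ligand of some gamma-delta T cells, had −1.16 ± 0.26 (edgeR, adjusted p = 0.00699). In all 3 the groups were apart.

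Hfe, the regulator of iron uptake, had a log2 fold change of 0.65 and rose (edgeR, adjusted p = 0.0248), a call that was lost without DMSO replicate 2 or SKI-II replicate 2 (adjusted p up to 0.116). The other class Ib genes were not called. Their log2 fold changes were −0.62 for H2-T3, −0.57 for H2-Q6, −0.55 for H2-Q7, −0.49 for H2-T10, −0.36 for Mr1, −0.35 for H2-M3, −0.32 for H2-Q10, −0.31 for H2-Q2, −0.12 for H2-Q1 and H2-Q4, 0.28 for H2-Bl and 0.70 for Fcgrt. Without SKI-II replicate 3, H2-Q2, H2-Q6 and H2-Q7 were also called and 6 class Ib genes in all were lower. H2-M3 was called lower without DMSO replicate 1 (adjusted p = 0.0444) and Fcgrt higher without DMSO replicate 3 (adjusted p = 0.0125), both in edgeR.

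**Figure D3:**
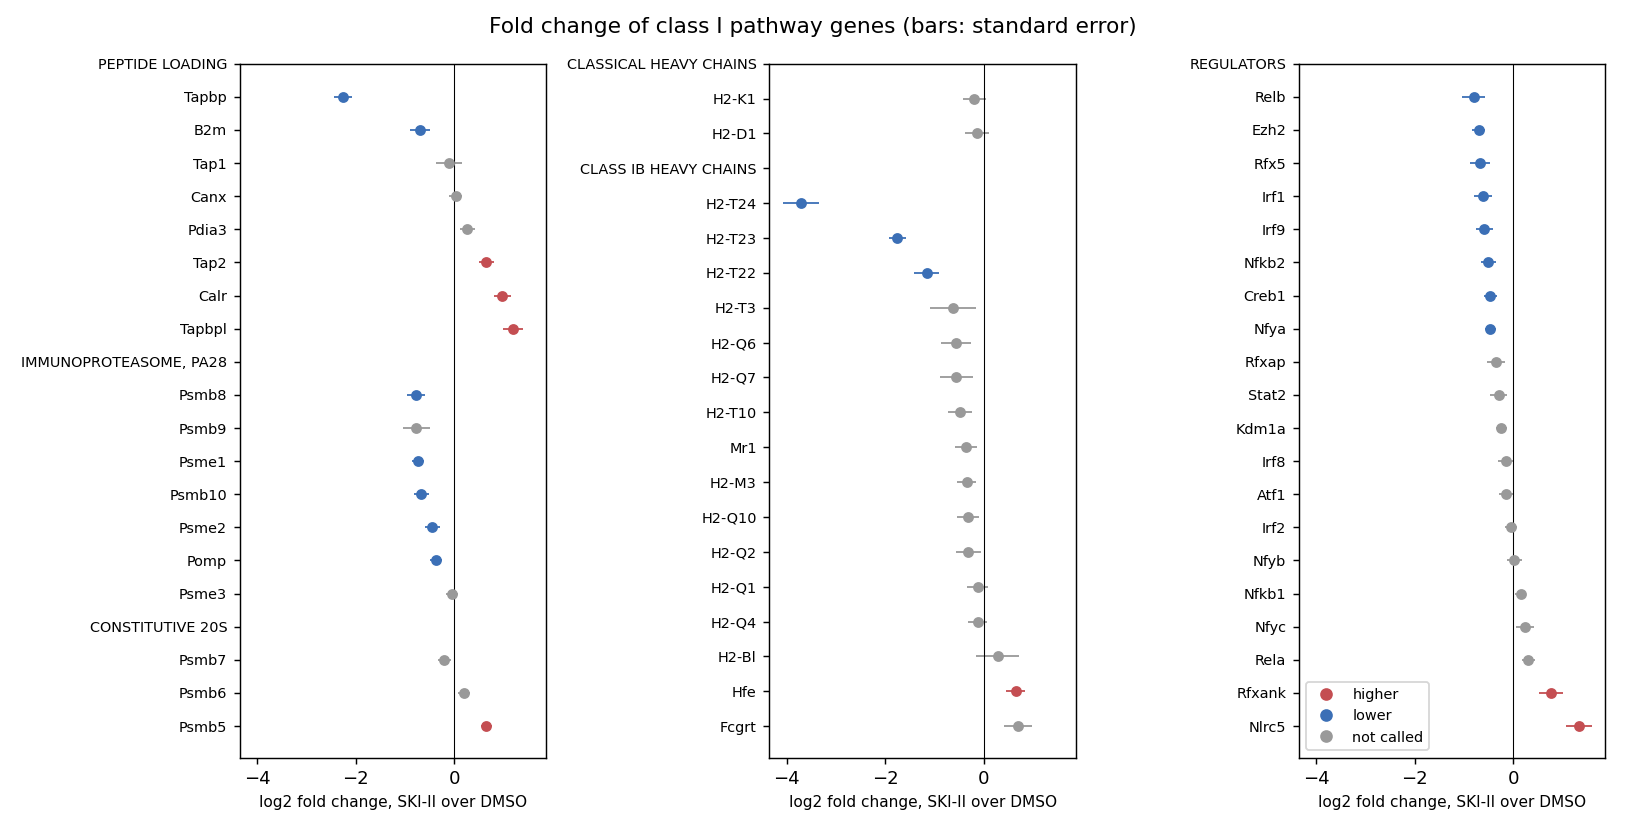
log2 fold change (SKI-II over DMSO) with its standard error for tested genes of 6 lists (20 of the 21 regulators), in red where called higher, blue where called lower and grey where neither. Tapbp and Tapbpl stand at opposite ends of the loading genes, H2-T24 at −3.70 stands at the low end of the class Ib genes and Nlrc5 at 1.34 at the high end of the regulators.

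The transcription regulators of class I genes were split. Nlrc5, the class I transactivator that acts on the promoters of heavy chains, B2m, Tap1 and Psmb9, had 814, 642 and 395 normalized counts in DMSO against 1965, 1515 and 1196 after SKI-II. It rose 2.52-fold without overlap, with a log2 fold change of 1.34 ± 0.25 (edgeR, adjusted p = 0.00298).

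Irf1, which binds interferon response elements of class I genes, fell, with a log2 fold change of −0.61 ± 0.18 (edgeR, adjusted p = 0.0255), and so did Rfx5, the DNA-binding subunit of the complex that recruits Nlrc5, with −0.67 ± 0.20 (adjusted p = 0.0263). Both calls depended on single libraries. That of Irf1 was lost without replicate 1 of DMSO or replicate 1 or 3 of SKI-II (adjusted p up to 0.0734), and that of Rfx5 without replicate 1 or 2 of DMSO or replicate 2 of SKI-II (adjusted p up to 0.104). Irf2 and Irf8 were not called, at −0.05 ± 0.13 and −0.15 ± 0.17. Of the 21 regulators 9 were called lower and 2 higher (Nlrc5 and Rfxank, at 0.77), with a median log2 fold change of −0.30. The count of lower calls was 4 without SKI-II replicate 2, and the Rfxank call was lost without replicate 2 or 3 of DMSO or replicate 1 of SKI-II (adjusted p up to 0.123).

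In the signaling list, the receptor chains of interferon-gamma fell. Ifngr1, the ligand-binding chain, had 544, 411 and 437 normalized counts in DMSO against 246, 239 and 239 after SKI-II, a log2 fold change of −0.94 ± 0.16 (edgeR, adjusted p = 0.00139). Ptpn6, the phosphatase SHP-1, had −1.08 ± 0.20 (edgeR, adjusted p = 0.00261), Ifngr2 had −0.51 and Tyk2 −0.38. Jak2, the kinase bound to Ifngr2, rose with 0.58 ± 0.15 (edgeR, adjusted p = 0.0128). The calls of all 3 of Ifngr2, Tyk2 and Jak2 were lost without SKI-II replicate 2, that of Ifngr2 also without DMSO replicate 3, and those of Tyk2 and Jak2 without DMSO replicate 2, with adjusted p up to 0.0946 over these genes. Of 10 tested receptor and kinase genes, 4 were called lower and 1 higher, and the count of lower calls was 2 without SKI-II replicate 2. Ifng itself had a count of 0 in every library.

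Of the GTPases that interferon-gamma strongly induces in macrophages, 9 were tested and another 7 of the 16 listed had too few counts. In edgeR 0 were called lower and 1 (Gbp8) higher, with a median log2 fold change of 0.24. At an unadjusted p below 0.05, 0 were lower, limma-voom called 0 lower, and DESeq2, which kept genes with fewer counts, called 1 lower and 2 higher. Without a filter on low counts edgeR called 4 higher and 1 lower, without DMSO replicate 1 it called 3 higher, and without SKI-II replicate 3 it called 1 lower. Gbp8 had 12.6, 73.3 and 170.3 normalized counts in DMSO against 205, 472 and 762 after SKI-II, and its call (edgeR, adjusted p = 0.0167) was lost without DMSO replicate 2 (adjusted p = 0.0614).

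Of the 10 genes, 7 lie in the MHC on chromosome 17, within 1.35 Mb, so they were compared with their neighbours. From 1 Mb below Tapbp to 1 Mb above H2-D1, 138 genes were tested, of which 25.4% were called lower and 12.3% higher, with a median log2 fold change of −0.15. These include the 7 pathway genes. Of the other 131 tested genes, 33 were called lower and 16 higher. Called genes of both directions were interspersed. Tap2 rose close to Psmb8, which fell, and H2-K1, the member nearest to Tapbp, was not called.

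**Figure D4:**
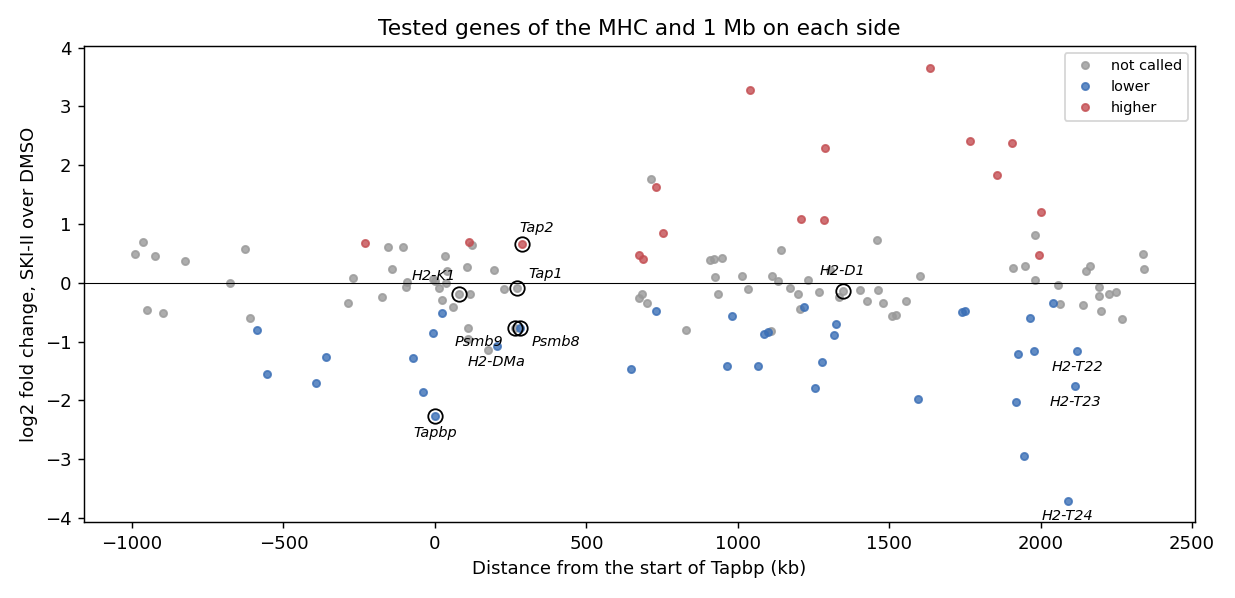
log2 fold change (SKI-II over DMSO) of the 138 tested genes against the distance in kb from the start of Tapbp, in red where called higher, blue where called lower and grey where neither, with circles around the 7 pathway genes. Tapbp at −2.26 and Tap2 at 0.65 lie among genes of both directions, and H2-T24, H2-T23 and H2-T22 lie close together near the right end.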

How the data were processed

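Poly(A) RNA of 6 RAW264.7 samples was sequenced, and the deposited table holds the raw counts of reads per Ensembl gene, which the authors made with Trimmomatic 0.36, STAR 2.5.2b and featureCounts (Subread 1.5.2), per the submitters' processing notes. The sources used here do not give the genome build, the annotation or the strand setting. Groups and replicate numbers came from the sample labels, the dose from the study's methods and the time from a figure legend of the study. GENCODE M21 (GRCm38) named 49056 of the 49315 identifiers and gave positions and exon lengths.

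Genes were tested with edgeR 4.0.16 in R 4.3.3 (quasi-likelihood F test), with TMM scaling, edgeR's default filter (at least 10 counts scaled to library size in 3 libraries, 15 in total), p-values adjusted by Benjamini-Hochberg across 12274 genes, and calls at an adjusted p below 0.05. The authors used DESeq2 and a log2 fold change limit of 1. Normalized counts are counts per TMM-scaled library size times the mean size, 16042438. Ratios used counts per exon length and an exact permutation test. The fit was tested on simulated data. No pair of libraries in a group differed by as little as sampling noise (chi-square over degrees of freedom, 15.4 to 58.1, for genes of 20 counts or more), so each counted as 1 replicate. That check cannot tell whether the libraries came from separate cultures. Alternatives were DESeq2 1.42.0, limma-voom (limma 3.58.1), other scalings and filters, leaving out each library, and a replicate block.

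All 10 genes are named with every library. In the 15 hand-written lists, which include the 10 genes, named regulators were Nlrc5, Irf1, Irf2, Irf8 and Rfx5, in other lists up to 3 called genes of largest change and 1 of opposed sign, and of the class Ib list every gene tested. A gene that the rule also named is not reported here. Other genes are named where a count of 5 or fewer called for it, after their values were seen. The 10 genes and the lists were chosen with earlier results of these data known.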

Additional observations from a re-analysis of the deposited data

How the results depend on the processing

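Across 13 alternatives for each of the 10 genes, 118 of 130 fold changes kept their direction and their side of the threshold. Another 3 (all B2m) were no longer called, 5 (all Psmb9) became called, and 4 changed sign. The last were uncalled values close to 0: over the libraries left out, the log2 fold change ran from −0.45 to 0.053 for H2-K1, from −0.37 to 0.14 for H2-D1 and from −0.46 to 0.12 for Tap1, highest without DMSO replicate 3 for the heavy chains and without SKI-II replicate 2 for Tap1. The number of the 10 genes called lower was 4 to 6 and that called higher 1 when each library was left out. With the study's added limit of 1 on the log2 fold change, 1 was called lower (Tapbp) and 0 higher, by construction of the stricter limit (5 and 1 at an adjusted p below 0.05 alone). Replacing the exon length by that of the longest coding transcript, chosen after seeing the data, moves levels. By construction it moves no group difference of a single gene or of a ratio between single genes. For the summed heavy chains over B2m, the log2 difference was 0.506 in place of 0.512.

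Of 390 list counts under the alternatives, 342 stayed within 1.5 times the main value. With a replicate block, 6 of the 10 genes were called lower (Psmb9 in addition, adjusted p = 0.00434 in edgeR) and 1 higher, and 5584 of all genes were called against 4668. In edgeR with the block, 6 class Ib genes were called lower and 2 higher (3 and 1 without it), with H2-Q6, H2-Q7 and H2-M3 lower at adjusted p of 0.00386, 0.0182 and 0.0390 and Fcgrt higher at 0.0107. The block also gave 1 higher call among the trimming peptidases and 2 among the interferon-gamma-induced GTPases. The labels do not say that a number marks a shared culture or day. Deviations of same-numbered libraries correlated with r of 0.25, 0.01 and 0.46. Of 6 libraries, 3 were closest to the one of their own number in the other group. These values cannot settle whether same-numbered libraries share a culture or day, and the main fit treated them as unpaired. The libraries' spread (a biological coefficient of variation of 17.5%) and n = 3 set the precision, so values of uncalled genes do not show that they were unchanged.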

Other observations

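Genes around the pathway were described in the same way, as values only. The chains of MHC class II were almost silent: Ciita, the class II transactivator, had no count in any library and H2-Aa, H2-Ab1 and H2-Eb1 at most 3 counts in any. Cd74, the invariant chain, nevertheless rose from 5049, 5788 and 8584 normalized counts in DMSO to 15586, 16075 and 19994 after SKI-II, a log2 fold change of 1.41 ± 0.20 (edgeR, adjusted p = 0.000684). Ifi30, the lysosomal thiol reductase GILT, fell with −1.50 ± 0.12 (edgeR, adjusted p = 1.88e-05), H2-DMa with −1.08 and Ctss, cathepsin S, with −0.62. Of 6 class II genes tested, 3 were called lower and 1 higher, with a median log2 fold change of −0.85.

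In the cross-presentation list 6 of 17 genes were called in each direction, with a median log2 fold change of 0.10. Cybb, the catalytic subunit of the phagosomal NADPH oxidase, had 5194, 3811 and 7616 normalized counts in DMSO against 329, 224 and 427 after SKI-II, a log2 fold change of −4.08 ± 0.27 (edgeR, adjusted p = 1.5e-05). Mrc1, the mannose receptor, was low in all libraries and had −1.62, a call lost without replicate 1 or 3 of DMSO or replicate 1 or 2 of SKI-II (adjusted p up to 0.0843). Rab43 rose with 1.36 ± 0.27 and Sec61a1, the channel of the endoplasmic reticulum translocon, with 1.31 ± 0.12 (edgeR, adjusted p = 0.00357 and 5.29e-05). The count of lower calls was 3 without SKI-II replicate 2.

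The myeloid class I receptors Pirb and Klra2 rose, with log2 fold changes of 1.94 ± 0.38 and 1.49 ± 0.33, and Sirpa, which binds CD47, with 0.46 ± 0.13 (edgeR, adjusted p = 0.00333, 0.00626 and 0.0198), so that all 3 genes tested in that list were called higher, with a median of 1.49. The Sirpa call was lost without replicate 2 of DMSO or replicate 1 or 2 of SKI-II (adjusted p up to 0.114). Membrane-bound ubiquitin ligases were called higher in 5 of 9 and lower in 1 (Tmem129, at −0.45, a call lost without any library but DMSO replicate 1, with adjusted p up to 0.126). Syvn1, a ligase of endoplasmic reticulum-associated degradation, had 1.37 ± 0.20, March8 1.05 ± 0.11 and March9, whose product can remove class I from the surface, 0.94 ± 0.15 (edgeR, adjusted p = 0.00069, 0.000121 and 0.00127). The count of higher calls was 3 without DMSO replicate 2 or SKI-II replicate 1.

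Of 9 costimulatory and checkpoint genes, 4 were called higher and 2 lower, among them Cd86 (log2 fold change 2.41 ± 0.44), Cd40 (1.91 ± 0.27) and Lgals9 (−1.08 ± 0.20), with adjusted p of 0.00252, 0.000545 and 0.00265 in edgeR. The count of lower calls was 1 without replicate 2 or 3 of DMSO or replicate 1 or 2 of SKI-II. Of the 4 NKG2D ligands tested, which resemble class I chains, Ulbp1 fell with −1.02 ± 0.21 (edgeR, adjusted p = 0.00427) and H60b was called higher, at 0.66, a call lost without any library but SKI-II replicate 3 (adjusted p up to 0.119).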
